A study of Mus musculus with 6 samples.

Results

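The genes described here are 6 ligands of the bone morphogenetic protein (BMP) family (Bmp2, Bmp3, Bmp4, Bmp5, Bmp6 and Bmp7), 3 secreted BMP antagonists (Grem1, Nog and Chrdl1) and Id1. They were chosen by name as known parts of the pathway, with earlier results of these data known. Each of the 10 symbols had 1 entry among the 33924 genes of the table. Id1 is neither a ligand nor an antagonist: it is a gene that BMP signalling switches on, and it is treated below as a target. RNA came from the retinal pigment epithelium (RPE) with the choroid, the vascular layer beneath it, of wild-type C57BL/6J mice, and ribosomal RNA was removed before sequencing. The young group had 3 libraries from mice of 1 to 2 months and the aged group had 3 from mice whose titles give 20 to 24 months and whose time label gives 22 to 24 months. Each library pooled 2 eyes. The labels give male mice throughout, while the methods of the study name males and females and an older range for the young group, so age and sex are uncertain to that extent. Nothing in the sources used here says whether the libraries of a group came from separate litters or cages.

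BMPs are secreted dimers of the transforming growth factor-β superfamily. They join type I and type II receptor kinases, which phosphorylate Smad1, Smad5 and Smad9, and these enter the nucleus with Smad4 and turn on targets such as the Id genes. Antagonists such as gremlin, noggin and the chordin family bind the ligand outside the cell and keep it from its receptors. In the eye, BMPs pattern the optic vesicle and favour RPE fate during development, and the adult RPE itself makes several of them.

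Besides total RNA, the study compared poly(A)-selected libraries of young and aged tissue, which were not used here. All values below come from the DESeq2 results that the authors deposited for total RNA. They give for each gene the baseMean, which averages the normalized counts of all 6 libraries, a log2 fold change, the standard error (SE) of that change, and an adjusted p. No value per mouse could be given, the depth of each library is unknown here, and the spread between mice enters only through the SE. Fold changes are written as aged over young. The header does not say which way the deposited sign runs, so it was read from the balance of higher and lower genes that the study gives, and all directions below rest on that reading. The SE was smaller for genes with a baseMean under 2 (median 0.24) than for those from 2 to 30 (median 0.44), as fold changes shrunken towards 0 would give. On that reading the changes of low genes such as Grem1 and Bmp5 are understated, and group means computed from them lie too close together. A gene was called where its adjusted p was under 0.05, and 95% intervals are the fold change ± 1.96 SE. Of 18636 genes with an adjusted p, 21.2% were called, 11.3% as higher and 9.92% as lower in aged mice. These were 2100 and 1849 genes, and 1655 and 2289 when fold changes were centred on abundant genes.

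Of the 10 genes, 9 had an adjusted p, and 4 of these were called. Bmp3 and Grem1 were lower in aged RPE/choroid, by 3.74-fold and 3.89-fold, and Nog and Chrdl1 were higher, by 1.92-fold and 1.49-fold. Bmp2, Bmp4, Bmp5, Bmp7 and Id1 were not called, and Bmp6 had a fold change but no p-value. All 3 antagonists were thus called, 2 higher and 1 lower, and 1 of the 5 ligands with an adjusted p. Over all genes tested the share called was 21.2%. The difference between groups this small was not tested. The median log2 fold change was -0.05 over the 9 genes and -0.01 over all genes tested.

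**Figure D1:**
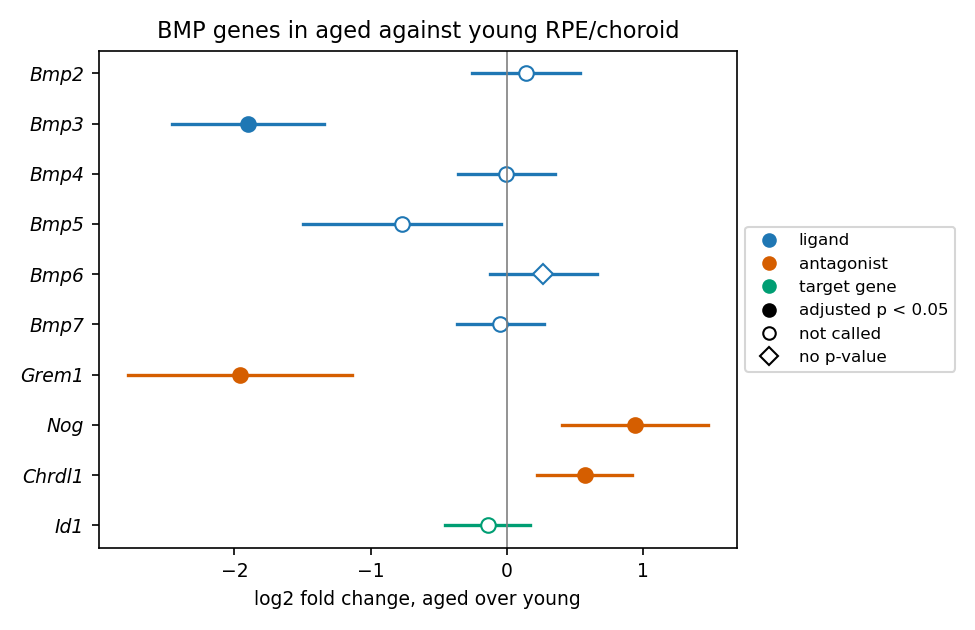
Log2 fold change (aged over young) of the 10 BMP genes, with bars for the 95% interval from the deposited SE. Filled points have an adjusted p under 0.05 and the diamond is Bmp6, which has no p-value; Bmp3 and Grem1 lie near -2 with intervals wholly below -1, Nog and Chrdl1 lie above 0, and the intervals of Bmp2, Bmp4, Bmp6, Bmp7 and Id1 cross 0.

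Among the ligands, Bmp3 was the one called between the ages. BMP3 differs from its relatives in acting mostly against BMP signalling, and in bone it restrains mass. Its gene lies on chromosome 5 at 98854415 to 98884396 (GRCm38, plus strand, 3 exons in its longest-spliced transcript). The log2 fold change of Bmp3 was -1.90 (SE 0.28, 95% interval -2.46 to -1.34, DESeq2 adjusted p 8.5e-10) at a baseMean of 123. The baseMean and fold change together give approximate group means of 195 normalized counts in young and 52.1 in aged tissue. Of the 18636 genes tested, 77 had a lower fold change than Bmp3.

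Bmp4 had the highest baseMean of the 10 genes, and its fold change was the nearest to 0. BMP4 is needed early in the eye, where it induces the lens and patterns the dorsal retina. The gene occupies chromosome 14 from 46383520 to 46390669 (minus strand). Its baseMean was 1122, and its log2 fold change was -0.0032 (SE 0.18, DESeq2 adjusted p 0.993). The 95% interval was -0.36 to 0.35. The largest unadjusted p among the genes called was 0.0106, so at the SE of Bmp4 a fold change under 0.47 on the log2 scale would not have been called. Bmp4 overlaps 2 annotated genes on the opposite strand, Gm15217 and Gm15222. The kit kept strand, but how the counting treated it is not given in the sources used here.

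Bmp2 and Bmp7 were likewise not called. Bmp2, a close relative of Bmp4 (chromosome 2, 133552159 to 133562885), stood at a baseMean of 455, with a log2 fold change of 0.14 (SE 0.20, 95% interval -0.25 to 0.54, DESeq2 adjusted p 0.672). Bmp7, which is needed for eye and kidney formation (chromosome 2, 172868012 to 172940321), stood at a baseMean of 720, with a log2 fold change of -0.05 (SE 0.16, 95% interval -0.37 to 0.27, DESeq2 adjusted p 0.873). For these ligands a change beyond 0.54 on the log2 scale in either direction lies outside the intervals.

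Bmp6 needs a separate reading. BMP6 is best known from the liver, where its release by endothelium sets hepcidin and so iron uptake. The gene spans 38345107 to 38500302 on chromosome 13 and overlaps Txndc5 and 4930579J19Rik on the opposite strand. Its baseMean was 687 and its log2 fold change 0.27 (SE 0.20, 95% interval -0.12 to 0.66). DESeq2 gave it no p-value, as it did for 160 genes with a fold change; by default the tool does so where 1 library lies far from the rest, and which library that would be cannot be seen here. The normal p of its deposited Wald score would be 0.177.

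Bmp5, mutated in the short-ear mouse, had the lowest baseMean of the 10 genes, 24.5 (chromosome 9, 75775364 to 75900310). Its log2 fold change of -0.77 was larger than those of the other ligands apart from Bmp3, but so was its SE of 0.37, and the adjusted p was 0.126 (DESeq2). The unadjusted interval ran from -1.50 to -0.04. The lower value in aged tissue was therefore not distinguishable once all genes were taken into account. Bmp5 overlaps Gm47723 on its own strand and Gm26903 on the opposite strand, so some reads may belong to these.

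The antagonists moved in opposite directions. Grem1 encodes gremlin-1, which binds BMP2, BMP4 and BMP7 and is known from limb and kidney development. It lies on chromosome 2 at 113746164 to 113758646 (minus strand, 2 exons). Its log2 fold change was -1.96 (SE 0.42, 95% interval -2.78 to -1.14, DESeq2 adjusted p 5.16e-05), with worked-out means of 68.5 normalized counts in young and 17.6 in aged tissue. Grem1 had the largest fall of the 10 genes, and 60 of the genes tested fell further. Its SE was also the largest of the 10, and 95.1% of tested genes with a baseMean within 2-fold of its 43.0 had a smaller SE, their median being 0.34.

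Nog encodes noggin, a high-affinity antagonist of BMP2, BMP4 and BMP7, in a single exon on chromosome 11 at 89300638 to 89302332. Its log2 fold change was 0.94 (SE 0.27, 95% interval 0.41 to 1.48, DESeq2 adjusted p 0.00476) at a baseMean of 690. The worked-out means were 473 normalized counts in young and 908 in aged tissue. The SE of Nog was wide for its abundance, and which mice gave that spread cannot be told here. Among 5636 tested genes with a baseMean within 2-fold, the median SE was 0.16 and 97.7% had a smaller one.

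Chrdl1 encodes chordin-like 1 (ventroptin), and loss of the human gene causes X-linked enlargement of the cornea. It is on the X chromosome at 143285674 to 143394262. Its log2 fold change was 0.57 (SE 0.18, 95% interval 0.22 to 0.92, DESeq2 adjusted p 0.00943) at a baseMean of 738, with worked-out means of 593 and 882 normalized counts. The interval of Grem1 lies wholly below those of Nog and Chrdl1, whereas the intervals of Nog and Chrdl1 overlap widely. Transcripts of the 10 genes share little sequence with other genes, as at least 0.9839 of the 31-base words in their transcripts occur in no other gene.

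Id1, the transcriptional inhibitor that BMP-activated Smads induce directly, was the readout of the pathway among these genes. At a baseMean of 867 its log2 fold change was -0.14 (SE 0.16, 95% interval -0.45 to 0.17, DESeq2 adjusted p 0.586), on chromosome 2 at 152736251 to 152737410. Id1 RNA was therefore not shown to differ with age, and a fall of over 0.45 or a rise of over 0.17 on the log2 scale lies outside its interval.

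**Figure D2:**
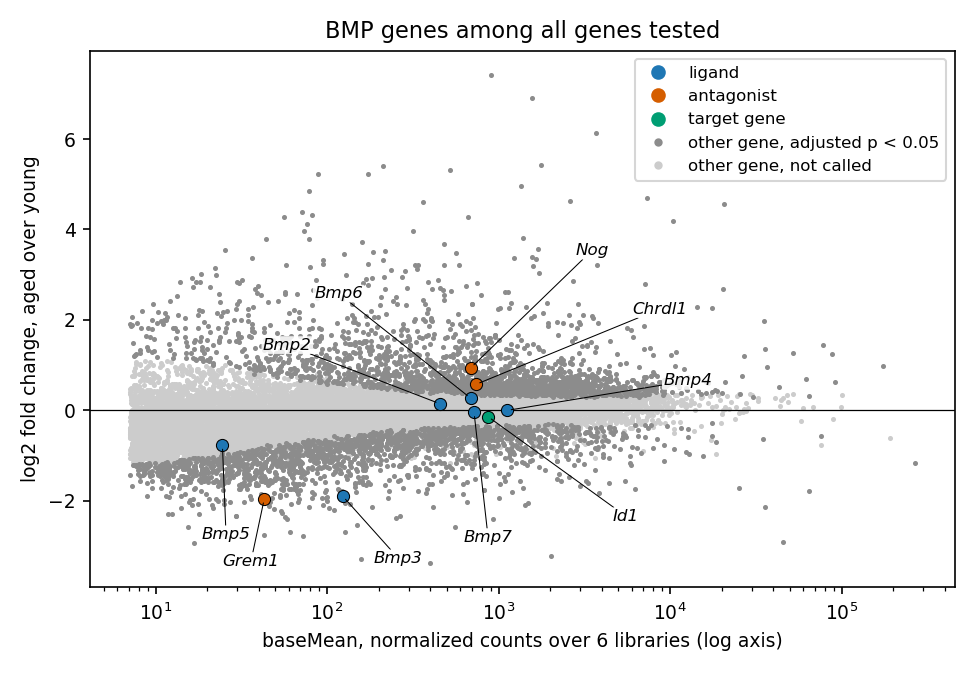
Log2 fold change (aged over young) against baseMean (log axis) for the 18636 genes tested in grey, with the 10 BMP genes coloured by role. Bmp4, Bmp7, Bmp6, Bmp2 and Id1 sit in the band of genes not called, Nog and Chrdl1 at its upper edge, and Bmp3 and Grem1 well below it at lower abundance.

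Levels of different genes were compared as baseMean per kilobase of the longest annotated transcript. On that scale Id1 came first with 747, followed by Bmp4 with 543 and Nog with 407 normalized counts per kilobase. Bmp7 (196), Bmp6 (191), Chrdl1 (180) and Bmp2 (128) formed a middle group, and Bmp3 (18.7), Grem1 (10.4) and Bmp5 (6.42) were low. No spread over mice is available for these levels, so neighbours in this order cannot be said to differ. The methods of the study give abundance as TPM, a value already scaled by transcript length, which was then turned into normalized counts. Whether the baseMean still carries that scaling is not stated in the sources used here. If it does, dividing by length corrects for it again and places long genes such as Bmp3 too low. That limit holds for this order and for the sums below. The order also depends on the length used. With the median transcript length of each gene, Bmp4 (1043) and Bmp6 (1024) came before Id1 (828), and Bmp5 was at 11.2, above Grem1. The 2 members that fell were among the 3 with the lowest levels under both lengths. From the group means, the summed level of the 6 ligands was 1076 per kilobase in young and 1092 in aged tissue, a ratio of 1.01. The median length raised these sums to 2454 and 2616, a ratio of 1.07. For the 3 antagonists the sums were 440 and 755 with the longest transcript, a ratio of 1.72, and the median length gave a ratio of 1.71. Without any division by length the ratio was 1.59 for the 3 antagonists and 0.997 for the 6 ligands. Nog alone contributed 279 and 536 to the sums with the longest transcript. The 19 other secreted antagonists and binding proteins described below summed to 9586 and 8963 per kilobase of longest transcript, a ratio of 0.93. Without division by length that ratio was 0.91. The lower sum per kilobase in aged tissue rests on Fstl1, since the other 18 summed to 5083 and 6656, a ratio of 1.31. The rise of these 18 lies in Nbl1 and Crim1, the 2 genes of the list called higher. Before division by length, Nbl1 had worked-out means of 1664 in young and 3688 in aged tissue, and Crim1 had 7720 and 11162. Of the 17 tested genes of the whole list, 8 were called lower.

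**Figure D3:**
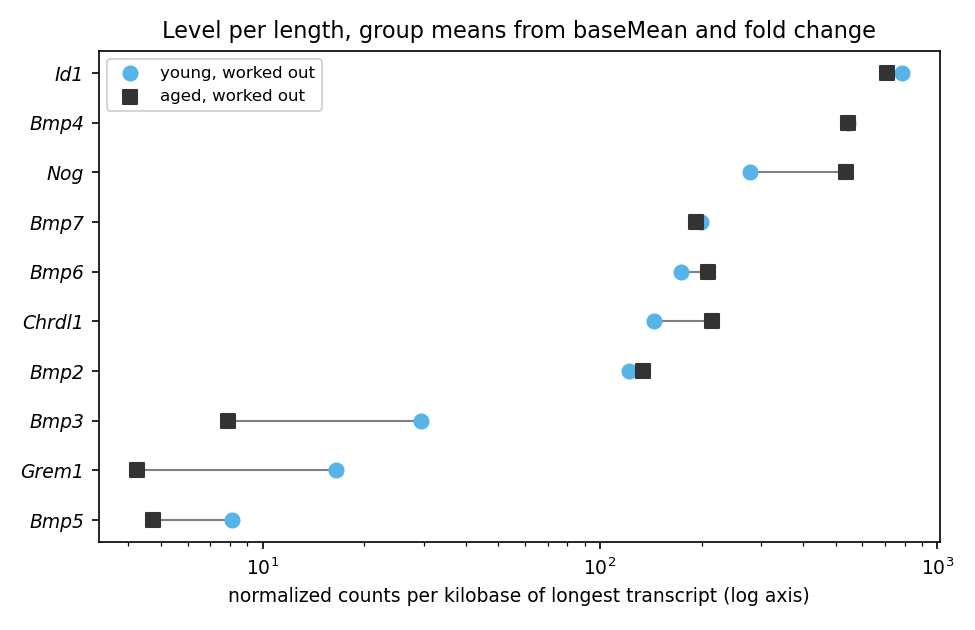
Normalized counts per kilobase of longest transcript (log axis) for each BMP gene, with the young (circle) and aged (square) group means that follow from baseMean and fold change; these carry no error bars because no value per mouse exists in the table. Bmp3 and Grem1 drop from 29.5 to 7.89 and from 16.5 to 4.24, Nog climbs from 279 to 536, and the 2 marks of Bmp4 coincide.

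Promoter sequences were available for 4 of the 10 genes (Bmp4, Bmp5, Bmp6 and Grem1; RefSeq, GRCm38.p6). The 250 bases before the start are shown for Grem1, the member with the largest fall, and for Bmp4, the member whose fold change was nearest 0. Both are written 5′ to 3′ on the strand of the gene, from chr2:113758649-113758898 and chr14:46390670-46390919. Capitals mark exact matches on either strand to GGCGCC, a sequence bound by Smad1 and Smad5, to CAGAC, the core bound by Smad4, or to TATAAA, the TATA box.
Grem1: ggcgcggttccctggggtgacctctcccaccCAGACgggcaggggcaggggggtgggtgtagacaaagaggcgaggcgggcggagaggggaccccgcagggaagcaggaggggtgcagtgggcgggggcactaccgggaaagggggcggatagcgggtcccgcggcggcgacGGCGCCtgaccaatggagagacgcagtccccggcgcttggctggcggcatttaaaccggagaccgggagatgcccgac
Bmp4: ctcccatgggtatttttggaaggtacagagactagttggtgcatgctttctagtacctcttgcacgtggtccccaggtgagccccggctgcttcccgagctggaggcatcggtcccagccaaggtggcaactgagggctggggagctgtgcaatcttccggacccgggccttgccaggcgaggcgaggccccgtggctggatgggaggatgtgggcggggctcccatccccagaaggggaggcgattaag
The Grem1 stretch held 1 GGCGCC and 1 CAGAC, and the Bmp4 stretch held none of the 3 motifs. The stretches of Bmp5, which was not called, and Bmp6, which had no p, each held 1 CAGAC or its reverse as well. The Bmp6 stretch (38345466 to 38345715) lies inside the gene span given above, which starts at 38345107. Of 32851 promoters of the same length, 9.59% held GGCGCC, 42.2% CAGAC or its reverse GTCTG, and 12.4% TATAAA or its reverse TTTATA. GC content was 72.0% with 24 CpG in Grem1 and 63.2% with 11 CpG in Bmp4. These matches describe letters only; no binding was measured.

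To place the 10 genes, 60 further genes of the pathway, also chosen with earlier results known, were followed by role, 53 with an adjusted p. Of these 20 (37.7%) were called, 6 higher and 14 lower, beside 21.2% of all genes, 11.3% higher and 9.92% lower. Their median log2 fold change was -0.05. Of the 25 tested genes that act outside the cell (ligands, antagonists, binding proteins and proteases) 15 (60%) were called. Of the 28 tested receptors, co-receptors, Smads, inhibitors and targets 5 (17.9%) were called. These broader groupings were formed after the values had been seen, and the difference between them was not tested.

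Of 10 other ligands, 1 (Bmp10) was at a baseMean of 0, and 5 had an adjusted p. Gdf3, a Nodal-like ligand, had the largest rise, with a log2 fold change of 3.55 (SE 0.43, DESeq2 adjusted p 1.23e-14) at a baseMean of only 25.3. Gdf10, the closest relative of Bmp3, rose by 1.30 (SE 0.15, DESeq2 adjusted p 6.18e-17) at a baseMean of 742, so it moved opposite to Bmp3. Bmp15, best known as an oocyte factor, was lower at -1.51 (SE 0.31) with a baseMean of 74.3.

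Secreted antagonists and binding proteins were more often lower than higher, with 8 lower and 2 higher among 17 tested and a median log2 fold change of -0.36. Fstl1, a follistatin-like glycoprotein, had the highest baseMean of the list (12902), and its log2 fold change was -0.97 (SE 0.15, DESeq2 adjusted p 1.24e-09). Fst, which binds activins more tightly than BMPs, fell by 1.20 on the log2 scale (SE 0.22), and Vwc2 fell by 1.07 (SE 0.26). Kcp, which resembles chordin but enhances BMP signalling, had -1.58 (SE 0.40) at a baseMean of 20.2. In contrast Nbl1, the founding member of the DAN family to which gremlin belongs, was higher at 1.15 (SE 0.12, DESeq2 adjusted p 4.45e-19). Grem1 and Nbl1, relatives within that family, moved in opposite directions. Further genes called included Sostdc1, Bmper and Smoc2, which were lower, and Crim1, which was higher.

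Proteases that free BMPs by cleaving chordin were lower in 2 of 3 cases. Bmp1, which despite its name is the procollagen C-proteinase and not a ligand, fell by 0.72 on the log2 scale (SE 0.14, DESeq2 adjusted p 4.78e-06), and Tll2 had -1.30 (SE 0.45) at a baseMean of 8.81.

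Among receptors and intracellular components the share called, 17.9%, was near that of all genes. Of 7 receptors 1 was called, Acvr2a, a type II receptor, at -0.45 (SE 0.15, DESeq2 adjusted p 0.0198). Bmpr1a, the most abundant receptor, had -0.12 (SE 0.12, DESeq2 adjusted p 0.537). Among co-receptors Rgmb was higher at 0.59 (SE 0.15), and Bambi, a decoy receptor that lacks the kinase domain, was lower at -0.52 (SE 0.17). Neo1, which binds the Rgm proteins, had -0.28 (SE 0.11, DESeq2 adjusted p 0.0517) and passed the threshold after centring (adjusted p 0.0127).

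Of the Smads that carry the signal, Smad9 was higher at 0.53 (SE 0.19, DESeq2 adjusted p 0.0254), a call lost after centring (0.46, adjusted p 0.0555). Smad5, the most abundant, had 0.01 (SE 0.11, DESeq2 adjusted p 0.978). None of the 4 intracellular inhibitors was called (DESeq2), and 1 of them, Smad6, had an unadjusted p under 0.05. Smurf2, a ubiquitin ligase that removes Smads, had a log2 fold change of -0.0005 (SE 0.11). Of 7 further targets, Hey1 alone was called, at -0.47 (SE 0.16, DESeq2 adjusted p 0.0241), and Hey1 also answers to Notch. Id3, the most abundant target, had -0.07 (SE 0.18, DESeq2 adjusted p 0.844), close to the value of Id1.

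**Figure D4:**
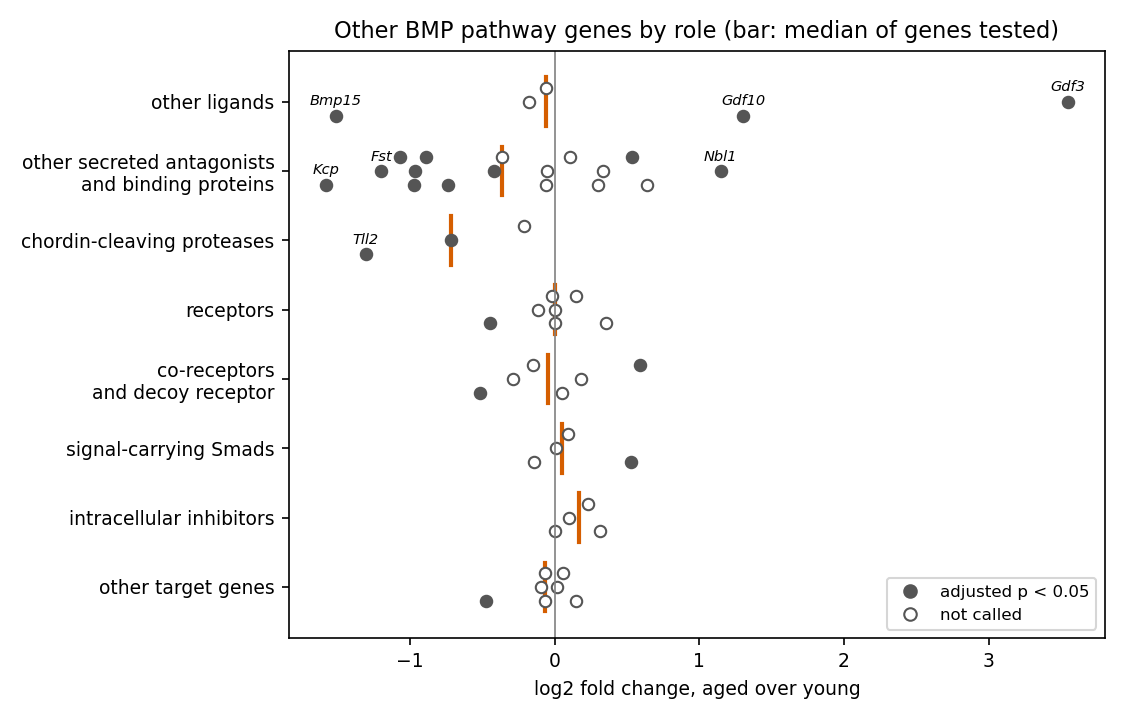
Log2 fold change (aged over young) of the 53 tested pathway genes outside the 10, 1 point per gene, grouped by role; filled points have an adjusted p under 0.05, and orange bars mark the median of each role. Secreted antagonists and binding proteins reach from -1.58 (Kcp) to 1.15 (Nbl1) with a median of -0.36, while receptors, Smads and inhibitors stay between -0.45 and 0.53.

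RPE/choroid holds several cell types, and fewer cells of a type cannot be told apart from less RNA per cell in such tissue. All 9 RPE markers were present, with baseMeans from 69.8 (Best1) to 92190 (Rgr), and 4 of 8 tested were higher in aged mice. Their summed worked-out level was 189600 in young and 251430 in aged tissue. Rgr held much of that difference, with 72252 and 112130, while Rpe65 was at 0.10 (SE 0.16) and not called. The 7 markers of pigment cells in general, RPE and melanocytes together, summed to 247720 and 223590. Fibroblast markers were lower in 6 of 10 cases and higher in 2 (Dcn and Fbln1), summing to 295070 and 125010. The lower sum lies in the 3 collagens of the list, since the other 7 markers summed to 55876 in young and 72249 in aged tissue. Dcn held most of that second sum, with 35871 and 50989, while Dpt at -1.82 (SE 0.27), Pi16 at -1.13 (SE 0.16) and Mfap5 at -0.66 (SE 0.15) were lower as the collagens were. Among the collagens were Col1a1 at -2.91 (SE 0.17) and Col1a2 at -1.80 (SE 0.15). Smooth muscle and pericyte markers were lower in 4 of 10 (Acta2, Myh11, Tagln and Cnn1). Macrophage markers were higher in 7 of 10 and lower in 1 (Cd163). Their median log2 fold change was 1.67, from -2.34 (Cd163) to 3.37 (Cd68), and Mrc1 and Cx3cr1 were not called. RNA of neighbouring tissue was present too, with Myh4 of skeletal muscle at a baseMean of 51830; it was not called, and 0 of 10 rod markers had an unadjusted or adjusted p under 0.05 (DESeq2). Skeletal muscle markers were lower in 3 of 9 tested (Mylpf, Myh2 and Myh1). Among endothelial markers Vwf was higher and Tek lower, among pigment cell markers Tyr was lower, among Schwann cell markers S100b was higher, and among proliferation markers Top2a was lower, with 0 further calls in these lists. The part of these cell types in the changes of the BMP genes was not tested.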

How the data were processed

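Total RNA of RPE/choroid from 3 young and 3 aged mice was depleted of ribosomal RNA and made into stranded libraries without poly(A) selection. The authors trimmed reads with BBDuk, mapped them with STAR to GRCm38 transcripts and estimated abundance as TPM with Sailfish. They turned the TPM into normalized counts by total count and ran DESeq2 (versions of STAR and DESeq2 are not given in the sources used here). Whether those normalized counts were the input of DESeq2 is not stated there either. A single deposited table was analysed. Its baseMean is a deposited signal, the mean normalized count over 6 libraries. Fold change and SE were deposited in log2 units. Their quotient, the Wald score, was deposited too. Each p-value and adjusted p-value comes from the authors' DESeq2 run. The table names no sample: 0 value columns could be tied to a mouse, so the planned fits per library were not run and the depth of single libraries is unknown here.

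No count model was refitted; the deposited comparison is described, with the sign turned to aged over young. A p-value without an adjusted p occurred only up to a baseMean of 7.07. SEs fall towards the lowest counts, as shrinkage of fold changes gives; no source states it. Group means were worked out from baseMean and fold change with equal group sizes, and are approximate where fold changes are shrunken. Positions, lengths and word sharing came from GENCODE vM21 (GRCm38), a later gene set than the one the authors used, and promoters from RefSeq. Alternatives were a threshold of 0.01, a minimum absolute log2 fold change of 1, no filter on low genes, a baseMean of at least 10, and centring on the median of genes with a baseMean of at least 100 (0.06). The adjustment and centring were tested on simulated data. Python 3.11.15, pandas 2.3.3 and scipy 1.17.1 were used.

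The 10 genes and the lists were chosen with earlier results of these data known. All 10 genes are named. From each other list of the pathway the text names up to 4 called genes with the largest change and the gene with the highest baseMean; from marker lists, those with the highest baseMean or largest change. Some genes that this rule would name are not reported here. Further names behind small counts were added after values had been seen. The macrophage marker Adgre1 stands in the table as Emr1.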

Additional observations from a re-analysis of the deposited data

How the results depend on the processing

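No paired analysis was possible because values of single mice are not in the table analysed. For that reason the fits without each mouse in turn, other tests and other normalizations were not run. The 4 calls among the 10 BMP genes stayed the same 4 genes at an adjusted p under 0.01, with no filter on low genes, at a baseMean of at least 10, after centring, and when Bmp6 and other genes without a p-value entered by their Wald score, an alternative chosen after seeing the data. A minimum absolute log2 fold change of 1 left 2, Bmp3 and Grem1, by construction. Of the 20 calls among other pathway genes, 12 were left at 0.01 and 8 by the minimum fold change, both stricter by construction, while the remaining alternatives gave 19 to 21. Smad5 turned from 0.0067 to -0.058 after centring. Of the 30 genes followed singly, 9 lost their call under the minimum fold change and 5 at 0.01. With the median in place of the longest transcript length, 3 of 10 genes kept their place in the order of levels. The median lengths of Bmp4 (1075 bases) and Bmp6 (671) are well below their longest transcripts (2064 and 3593), which raised both, and Bmp5 passed Grem1. Depth per library, and so the counting error of low genes such as Grem1 and Bmp5, is unknown here.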

Other observations

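The nearest protein-coding gene with an adjusted p on either side of each of the 10 BMP genes was looked up after the values had been seen. Of these 20 neighbours, 2 were called, against 21.2% of all genes tested. Fmn1, whose body is known to hold limb enhancers of Grem1, lies 29.4 kb away from it and was higher in aged tissue, with a log2 fold change of 0.30 (SE 0.11, DESeq2 adjusted p 0.0422) and a baseMean of 3626, whereas Grem1 was lower. Scg5, 17.7 kb to the other side of Grem1, had 0.17 (SE 0.26, DESeq2 adjusted p 0.695). Snrnp48, 117 kb from Bmp6, was lower at -0.62 (SE 0.21, DESeq2 adjusted p 0.0219). Prkg2, 45.4 kb from Bmp3, had -0.58 (SE 0.35, DESeq2 adjusted p 0.237), and the neighbours of Nog, Gm525 and Ankfn1, had -0.01 (SE 0.27) and -0.15 (SE 0.14).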
